A study of Rattus norvegicus with 12 samples.

Results

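The connexins of working and conducting heart muscle and the genes of the intercalated disc were followed in cultured cardiomyocytes, the beating muscle cells, from newborn rat ventricles after transfection with small interfering RNA (siRNA) against Btg1, Btg2 or both. The set was chosen by symbol and not by any measured value: Gja1, Gja5 and Gjc1 (connexins), Dsp, Pkp2, Jup, Dsg2 and Dsc2 (desmosome), Cdh2 (adherens junction) and Tjp1 (zonula occludens). Of these 10 genes, 8 were analysed among 17419 genes in the count and TPM tables, and all 8 were among the 12535 genes that passed the filter on low counts. Dsp and Dsg2 were not analysed here. The cells came from ventricles of wildtype Sprague-Dawley rats on the day of birth, after a step that separated off fibroblasts, and were collected 48 h after transfection with Lipofectamine. Controls were given a scrambled siRNA at 20 nM. The Btg1 group received 10 nM of Btg1 siRNA with 10 nM of scrambled siRNA, and the Btg2 group 10 nM of Btg2 siRNA with 10 nM of scrambled siRNA. The group with both received the Btg1 and Btg2 siRNAs at 10 nM each, without scrambled siRNA. Each group had 3 libraries. Whether these are separate cultures or animals is not stated in the labels, and p-values thus reflect the spread between libraries, which may be technical.

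Connexins are membrane proteins that assemble into gap junction channels, through which ions and small molecules pass directly from one cardiomyocyte to the next. Connexin 43, made from Gja1, is the main connexin of ventricular muscle, connexin 40 (Gja5) is typical of atrial muscle, the fast conduction system and endothelium, and connexin 45 (Gjc1) of the nodes and the embryonic heart. At the intercalated disc, gap junctions lie beside adherens junctions and desmosomes, which couple the actin and the desmin filaments of neighbouring cells. The scaffold protein ZO-1, made from Tjp1, binds the tail of connexin 43 at the edge of the gap junction.

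The 8 genes did not all move the same way. Under Btg1 siRNA, alone or combined with Btg2 siRNA, Gja1, Gja5 and Cdh2 were lower than in scramble cultures and Tjp1 and Pkp2 were higher. Under Btg2 siRNA alone, Gja1, Cdh2, Pkp2 and Tjp1 were all higher. Calls were made at an adjusted p of 0.05, from the quasi-likelihood test of edgeR with p-values adjusted after Benjamini and Hochberg over all tested genes. On that basis 3 of the 8 rose and 3 fell with both siRNAs against scramble, where 38.9% of all tested genes were called in either direction. Under Btg1 siRNA 3 rose and 3 fell, against 36.5% of all tested genes called. Under Btg2 siRNA 4 rose, against 30.0% called, and none fell by edgeR, at an unadjusted p below 0.05, by DESeq2 or by limma. Taken without sign, the 8 genes had a median log2 change of 0.29 with both siRNAs, 0.33 under Btg1 siRNA and 0.15 under Btg2 siRNA. Over all tested genes it was 0.16, 0.15 and 0.14. All 3 comparisons share the scramble libraries. The tested genes include some at far lower levels than these 8, where a change is harder to call, and no comparison matched for level was run.

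Library totals ran from 24434925 to 46206581 counts. A gene is followed across groups in CPM, counts scaled to a common library size with TMM factors of 0.971 to 1.02. Levels of different genes are compared in the deposited TPM, transcript abundances that also divide by gene length. Btg1, one of a pair of related antiproliferative genes, stood at 283 ± 2.19 CPM in scramble cultures and at 66.2 ± 4.07 with its own siRNA, 299 ± 4.70 under Btg2 siRNA and 51.7 ± 2.41 with both (SD, n = 3 each). Btg2, the other, stood at 139 ± 6.41, 175 ± 5.0, 85.2 ± 2.31 and 68.7 ± 0.983 CPM in the same order of scramble, Btg1 siRNA, Btg2 siRNA and both. The Btg2 transcript kept 61.5% of its scramble level in the cultures given the Btg2 siRNA alone.

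The levels per length in scramble cultures spanned a wide range. Gja1 was the highest at 787 ± 25.4 TPM (SD, n = 3), rank 187 of 17419 genes, followed by Cdh2 at 521 ± 17.3 TPM. Jup at 255 ± 3.76 and Pkp2 at 228 ± 4.43 TPM came next, and their libraries did not overlap, at 252.5 to 259.5 and 224.8 to 233.0. Tjp1 stood at 60.0 ± 1.93 TPM, Gja5 at 38.8 ± 2.89 and Gjc1 at 26.4 ± 1.45. Dsc2, the desmosomal cadherin desmocollin 2, was the lowest at 14.9 ± 1.48 TPM, rank 7611. No neighbours in this order overlapped in the scramble libraries. In the cultures given the Btg1 siRNA alone, Gja5 at 23.7 to 27.8 TPM lay below Gjc1 at 30.9 to 31.4 TPM, the reverse of the scramble order. With both siRNAs Gja5, at 27.0 to 32.2 TPM, and Gjc1, at 26.8 to 29.4, overlapped. Under Btg1 siRNA alone Jup, at 254.1 to 272.7 TPM, and Pkp2, at 242.3 to 261.8, overlapped. In the cultures given the Btg2 siRNA Pkp2, at 259.2 to 286.4 TPM, lay above Jup at 243.2 to 251.7.

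**Figure D1:**
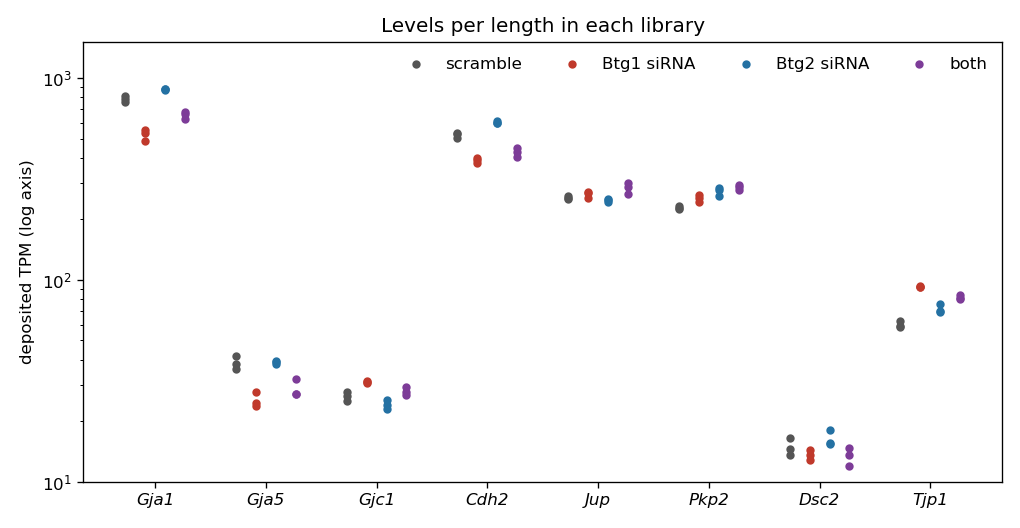
Deposited TPM (log axis) of each of the 8 genes in each of the 12 libraries, coloured by siRNA group. Gja1 and Cdh2 are highest in every library and Dsc2 lowest, and Gja5 lies below Gjc1 in the 3 libraries given the Btg1 siRNA alone and in replicate 3 of the group with both.

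Gja1, connexin 43, was at 1296, 1210.4 and 1241 CPM in the scramble libraries, listed here as elsewhere in the order of replicates 1 to 3, at 833, 886 and 787 under Btg1 siRNA, at 1406, 1433 and 1366 under Btg2 siRNA, and at 1054, 1042 and 998.6 with both. The groups did not overlap: libraries given Btg1 siRNA were lowest, then both siRNAs, then scramble, then the Btg2 siRNA. Gja1 fell under Btg1 siRNA by 0.58 ± 0.04 on the log2 scale (SE, edgeR adjusted p = 6.6e-10), to 66.9% of scramble. In all, 8.59% of tested genes had a larger absolute change in that comparison. Gja1 rose by 0.17 ± 0.04 under Btg2 siRNA (edgeR adjusted p = 0.0058) and changed by -0.28 ± 0.04 with both (edgeR adjusted p = 2.4e-05). Since Gja1 transcripts are present in fibroblasts as well as in cardiomyocytes, and the libraries are of whole cultures, fewer cells of a type and less RNA per cell cannot be told apart here or below.

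Gja5, connexin 40, was at 66.1, 59.9 and 56.6 CPM in scramble cultures, 42.9, 37.5 and 39.2 under Btg1 siRNA, 60.3, 62.5 and 61.2 under Btg2 siRNA, and 49.6, 42.1 and 42.7 with both. All 6 libraries given the Btg1 siRNA lay below all 6 without it. Gja5 fell by 0.61 ± 0.07 under Btg1 siRNA (SE, edgeR adjusted p = 2.1e-07) and by 0.44 ± 0.07 with both (edgeR adjusted p = 1.3e-05), which left 65.5% and 73.6% of the scramble level. Under Btg2 siRNA alone its change of 0.01 did not pass (95% interval -0.14 to 0.16, edgeR adjusted p = 0.93).

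The start regions of Gja1 and Gja5 are shown because these connexin genes fell together in both groups that received the Btg1 siRNA. The sequences are RefSeq's on the rat assembly GRCr8, which is not the build of the deposited counts, and end at the base before the annotated start; 5 of the 8 genes had such a window. Capitals mark matches, on either strand, to motifs searched by their letters: TGANTCA for AP-1, TATAAA for the TATA box, CCAAT for the CCAAT box, GGGCGG for the GC box, GGTGTGA for the T-box half-site, CAAGTG for the NKX2-5 half-site and GATAA for GATA factors.
Gja1, GRCr8 chr20:36302314-36302563, plus strand: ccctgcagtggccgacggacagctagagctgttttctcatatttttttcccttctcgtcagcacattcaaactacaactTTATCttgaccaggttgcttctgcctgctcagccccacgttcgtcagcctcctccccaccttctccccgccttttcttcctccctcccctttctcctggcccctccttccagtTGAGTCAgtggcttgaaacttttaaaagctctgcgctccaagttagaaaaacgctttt
Gja5, GRCr8 chr2:187290977-187291226, plus strand: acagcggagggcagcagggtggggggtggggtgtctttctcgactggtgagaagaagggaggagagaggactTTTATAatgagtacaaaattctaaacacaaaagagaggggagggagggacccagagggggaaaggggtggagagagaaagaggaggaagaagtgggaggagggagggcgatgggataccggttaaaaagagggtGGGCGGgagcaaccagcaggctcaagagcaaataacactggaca
In Gja1 the AP-1 letters TGAGTCA begin 58 bases before the start and the GATA letters, as TTATC on the opposite strand, begin at 171 bases. In Gja5 the TATA letters, as TTTATA on the opposite strand, begin 178 bases before the start and the GC box letters GGGCGG at 44 bases. No marked matches overlap, and the windows share none of the motifs. Of 33469 rat windows of the same length, 6.34% held the AP-1 letters, 12.93% the TATA box, 34.02% the CCAAT box, 30.47% the GC box, 3.22% the T-box half-site, 11.74% the NKX2-5 half-site and 23.47% the GATA letters. A match describes the letters only, and binding was not measured.

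Gjc1, connexin 45, rose under Btg1 siRNA alone, where Gja1 and Gja5 fell. It was at 20.3, 22.6 and 21.2 CPM in scramble cultures, 24.5, 25.5 and 25.8 under Btg1 siRNA, 19.5, 18.9 and 20.2 under Btg2 siRNA, and 22, 21.5 and 23.8 with both. The Btg1 siRNA libraries were the 3 highest and the Btg2 siRNA libraries the 3 lowest. Gjc1 rose by 0.24 ± 0.06 under Btg1 siRNA (SE, edgeR adjusted p = 0.0048). Its changes of -0.13 under Btg2 siRNA (95% interval -0.28 to 0.03, edgeR adjusted p = 0.16) and 0.07 with both (-0.08 to 0.22, edgeR adjusted p = 0.43) did not pass.

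Summed over the 3 connexins, the level was 852 ± 25.9 TPM in scramble cultures, 581 ± 35.1 under Btg1 siRNA, 943 ± 1.87 under Btg2 siRNA and 712 ± 26.0 with both (SD, n = 3 each). Gja1 made up most of this sum in every group, 92.3% in scramble cultures and 90.3% under Btg1 siRNA. The share of Gjc1 was 3.11 ± 0.263% in scramble cultures, 5.38 ± 0.345% under Btg1 siRNA, 2.56 ± 0.138% under Btg2 siRNA and 3.93 ± 0.314% with both. The ratio of Gja1 to Gjc1 TPM did not overlap between any pair of groups, at 27.3 to 32.5 in scramble, 15.5 to 17.6 under Btg1 siRNA, 34.5 to 38.5 under Btg2 siRNA and 21.4 to 24.7 with both. The ratio of Gja1 to Gja5 stayed closer, with means of 20.4 in scramble cultures, 20.8 under Btg1 siRNA, 22.6 under Btg2 siRNA and 22.9 with both, and with libraries that overlapped between all pairs of groups except scramble and Btg2 siRNA. The shares and ratios carry no test.

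**Figure D2:**
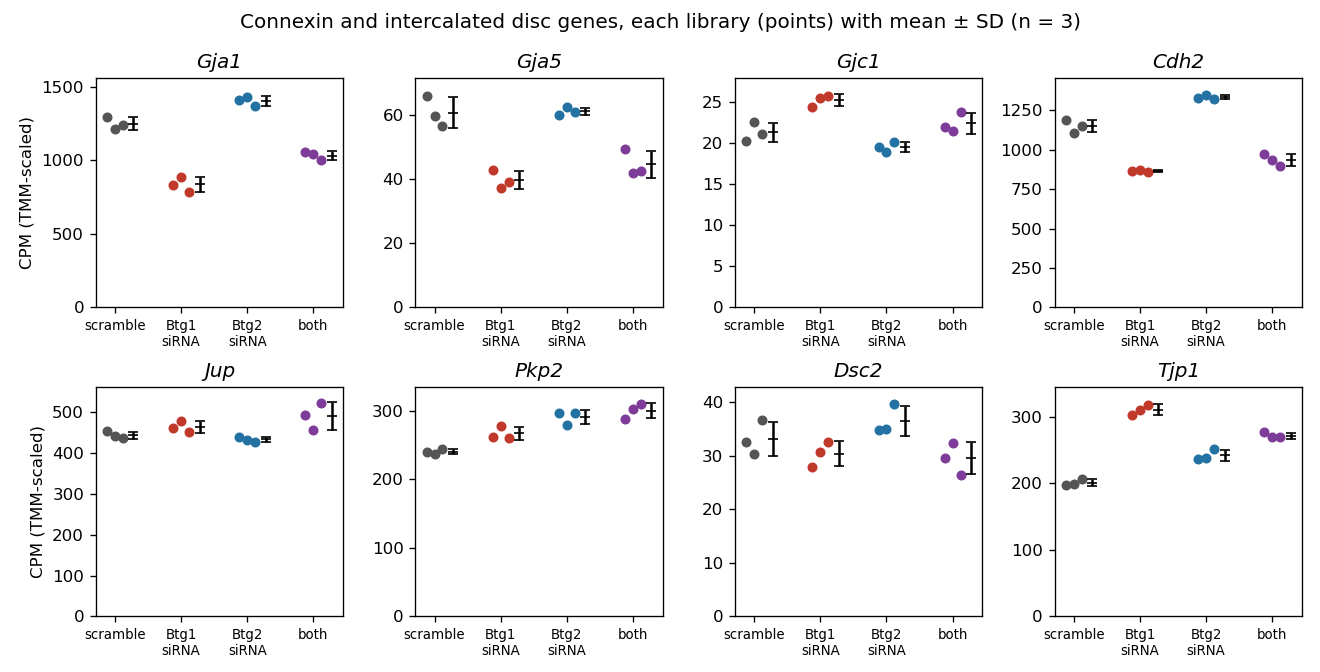
TMM-scaled CPM of the 8 genes in each library (points) with the group mean and SD (bars, n = 3), each panel from 0. Gja1, Gja5 and Cdh2 are lower in the groups given the Btg1 siRNA, Tjp1 is higher in every siRNA group than in scramble, and the Dsc2 points of each siRNA group overlap those of scramble.

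Cdh2, N-cadherin, the adhesive cadherin of the cardiac adherens junction, had a pattern close to that of Gja1. Its libraries stood at 1186, 1107 and 1152 CPM in scramble cultures, 865, 871 and 856 under Btg1 siRNA, 1325, 1345 and 1322 under Btg2 siRNA, and 973, 935 and 897 with both. No groups overlapped. Cdh2 fell by 0.41 ± 0.04 under Btg1 siRNA (SE, edgeR adjusted p = 2.2e-08) and by 0.30 ± 0.04 with both (edgeR adjusted p = 2.1e-06), and rose by 0.21 ± 0.04 under Btg2 siRNA (edgeR adjusted p = 2.3e-04). The ratio of Gja1 to Cdh2 TPM was 1.51 ± 0.0130 in scramble cultures, 1.34 ± 0.0678 under Btg1 siRNA, 1.46 ± 0.0245 under Btg2 siRNA and 1.53 ± 0.0243 with both (SD, n = 3 each).

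Among the desmosome genes, Pkp2, plakophilin 2, which links desmosomal cadherins to desmoplakin, rose in all 3 siRNA groups. It was at 239, 237 and 244 CPM in scramble cultures, 262, 278 and 261 under Btg1 siRNA, 296, 279 and 297 under Btg2 siRNA, and 288, 302 and 309.9 with both. Every siRNA library lay above the 3 scramble libraries. The log2 changes were 0.15 ± 0.04 under Btg1 siRNA (SE, edgeR adjusted p = 0.0040), 0.28 ± 0.04 under Btg2 siRNA (edgeR adjusted p = 1.4e-05) and 0.32 ± 0.04 with both (edgeR adjusted p = 7.9e-07). Pkp2 overlaps an snRNA gene and a pseudogene in the RefSeq annotation, and the strand setting of the counting is not given in the sources used here, so their reads cannot be told apart from its own.

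Jup, plakoglobin, which binds the cadherins of both desmosomes and adherens junctions, rose with both siRNAs together by 0.14 ± 0.04 (SE, edgeR adjusted p = 0.0093). Its libraries were at 454, 442 and 437 CPM in scramble cultures, 462, 479 and 452 under Btg1 siRNA, 441, 433 and 427 under Btg2 siRNA, and 493, 457 and 524 with both. The group with both was the most spread, and its lowest library was just above the highest scramble library. Without replicate 3 of that group the change of 0.10 no longer passed (edgeR adjusted p = 0.066). The changes of 0.06 under Btg1 siRNA (95% interval -0.04 to 0.16) and -0.04 under Btg2 siRNA (-0.13 to 0.06) did not pass (edgeR adjusted p = 0.27 and 0.57). A long noncoding RNA gene overlaps Jup in RefSeq.

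Dsc2, desmocollin 2, was at 32.4, 30.3 and 36.6 CPM in scramble cultures, 27.9, 30.6 and 32.6 under Btg1 siRNA, 34.8, 34.9 and 39.6 under Btg2 siRNA, and 29.6, 32.4 and 26.4 with both. Each siRNA group overlapped scramble, and no change against scramble passed. With both siRNAs the change was -0.17 ± 0.08 (SE, 95% interval -0.35 to 0.02, edgeR adjusted p = 0.12). It passed when scramble replicate 2 (edgeR adjusted p = 0.049) or replicate 2 of the group with both (edgeR adjusted p = 0.036) was left out. The ratio of Pkp2 to Dsc2 TPM was 15.4 ± 1.21 in scramble cultures and 21.7 ± 2.65 with both siRNAs (SD, n = 3 each).

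Tjp1, ZO-1, had the largest rise of the set. It was at 197, 199 and 207 CPM in scramble cultures, 302, 311 and 318 under Btg1 siRNA, 237, 238 and 251 under Btg2 siRNA, and 277, 269 and 269.6 with both. No groups overlapped: scramble was lowest, then the Btg2 siRNA, then both, then the Btg1 siRNA. The log2 changes were 0.63 ± 0.04 under Btg1 siRNA (SE, edgeR adjusted p = 1.5e-11), 0.27 ± 0.04 under Btg2 siRNA (edgeR adjusted p = 1.1e-05) and 0.43 ± 0.04 with both (edgeR adjusted p = 3.7e-09). Under Btg1 siRNA the level was 154% of scramble, and 7.28% of tested genes had a larger absolute change. The ratio of Gja1 to Tjp1 TPM was 13.1 ± 0.654 in scramble cultures, 5.68 ± 0.415 under Btg1 siRNA, 12.2 ± 0.662 under Btg2 siRNA and 8.01 ± 0.181 with both. Tjp1 overlaps 2 long noncoding RNA genes and a tRNA gene in RefSeq. No overlapping gene was listed for Gja1, Gja5, Gjc1, Cdh2 or Dsc2.

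**Figure D3:**
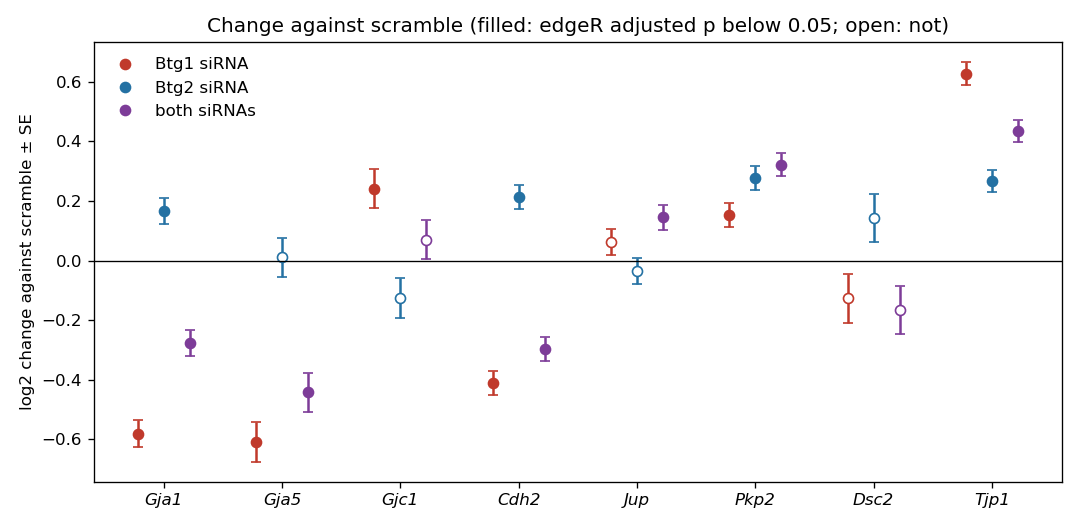
Log2 change against scramble with its SE for each gene and siRNA group (filled, edgeR adjusted p below 0.05; open, not). Gja1 and Cdh2 lie below 0 under Btg1 siRNA and above 0 under Btg2 siRNA, while Pkp2 and Tjp1 lie above 0 in all 3 groups.

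The single siRNA groups differed from each other in 7 of the 8 genes, against 40.8% of all tested genes called. Relative to the Btg2 siRNA, the Btg1 siRNA cultures had lower Gja1 (-0.75 on the log2 scale, edgeR adjusted p = 8.4e-12), Cdh2 (-0.62, edgeR adjusted p = 2.3e-11), Gja5 (-0.62, edgeR adjusted p = 1.4e-07), Dsc2 (-0.27, edgeR adjusted p = 0.011) and Pkp2 (-0.12, edgeR adjusted p = 0.014). Gjc1 (0.37, edgeR adjusted p = 8.6e-05) and Tjp1 (0.36, edgeR adjusted p = 6.0e-08) were higher, and Jup was not called (0.10, edgeR adjusted p = 0.071). The Pkp2 and Dsc2 calls were lost when single libraries were left out: Pkp2 without replicate 1 or 3 of either group (edgeR adjusted p = 0.056 to 0.064), and Dsc2 without Btg1 replicate 1 (0.071) or Btg2 replicate 3 (0.080). Jup passed without replicate 2 (0.039) or 3 (0.034) of the group with both. This comparison is the test of whether Gja1 and Cdh2, which fell with one siRNA and rose with the other, responded differently.

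Adding the Btg2 siRNA to the Btg1 siRNA changed 4 of the 8 genes, against 22.3% of all tested genes called. Gja1 was higher with both than with the Btg1 siRNA alone (0.30, edgeR adjusted p = 2.4e-05), as were Pkp2 (0.17, edgeR adjusted p = 0.0030) and Cdh2 (0.11, edgeR adjusted p = 0.039), and Tjp1 was lower (-0.19, edgeR adjusted p = 5.9e-04). Gja5 (0.17, edgeR adjusted p = 0.080) and Gjc1 (-0.17, edgeR adjusted p = 0.057) missed the threshold. The small Cdh2 difference did not pass without any 1 of the 3 Btg1 siRNA libraries (edgeR adjusted p = 0.072 to 0.099), scramble replicate 3 (0.057), or replicate 1 (0.18) or 2 (0.082) of the group with both. Gja5 passed without Btg1 replicate 1 (0.039), Gjc1 without replicate 3 of the group with both (0.023) and Jup without its replicate 2 (0.029).

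Adding the Btg1 siRNA to the Btg2 siRNA changed 7 of the 8 genes, against 32.2% called among all tested genes. Cdh2 (-0.51, edgeR adjusted p = 9.3e-10), Gja5 (-0.45, edgeR adjusted p = 1.3e-05), Gja1 (-0.44, edgeR adjusted p = 4.8e-08) and Dsc2 (-0.31, edgeR adjusted p = 0.0057) were lower. Gjc1 (0.20, edgeR adjusted p = 0.025), Jup (0.18, edgeR adjusted p = 0.0021) and Tjp1 (0.17, edgeR adjusted p = 0.0013) were higher, and Pkp2 did not pass (0.04, 95% interval -0.05 to 0.14, edgeR adjusted p = 0.42). The Gjc1 call was lost without replicate 3 of the group with both (edgeR adjusted p = 0.11) or Btg2 replicate 1 (0.063) or 2 (0.083).

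The effect of both siRNAs was set against the sum of the single effects. Tjp1 was called as departing from it, 1 of 8 genes, against 15.1% of all tested genes. Its single changes sum to 0.89 and the change with both was 0.43, a departure of -0.46 ± 0.05 (SE, edgeR adjusted p = 2.1e-06). For Gja1 the sum was -0.41 and the change with both -0.28, a departure of 0.14 ± 0.06 that did not pass (95% interval -0.01 to 0.28, edgeR adjusted p = 0.14). Those of Gja5 (0.15), Jup (0.12), Gjc1 (-0.05), Cdh2 (-0.10), Pkp2 (-0.11) and Dsc2 (-0.18) did not pass either (edgeR adjusted p = 0.21 to 0.80). Jup passed when replicate 2 of the group with both was left out (0.17, edgeR adjusted p = 0.047).

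**Figure D4:**
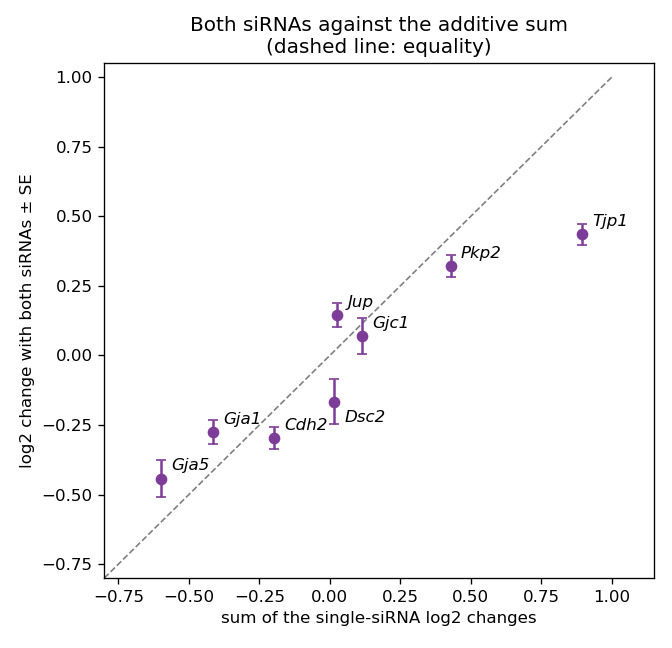
Log2 change with both siRNAs, with its SE, against the sum of the log2 changes with each siRNA alone; the dashed line is equality. Tjp1 lies furthest from the line, at 0.43 against a sum of 0.89.

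Other genes of these junctions were read from lists of related genes. The number called in a list is to be read beside the share of all tested genes called. That share was 38.9% with both siRNAs, 36.5% under Btg1 siRNA and 30.0% under Btg2 siRNA. Of 18 further connexins and pannexins with a row, 6 passed the low-count filter, none of them above 18.8 CPM on average in any group. With both siRNAs 3 of these rose: Panx2 (0.41, edgeR adjusted p = 0.0028), Gja3 (0.33, edgeR adjusted p = 0.0046) and Panx1 (0.26, edgeR adjusted p = 0.015). Pannexins form single-membrane channels, and Gja3 is best known as connexin 46 of the lens. Gja3 also rose under Btg1 siRNA (0.28, edgeR adjusted p = 0.014), and none of the 6 passed under Btg2 siRNA by edgeR, at an unadjusted p below 0.05, by DESeq2 or by limma. The median log2 changes of the 6 were 0.10 with both siRNAs, -0.19 under Btg1 siRNA and -0.16 under Btg2 siRNA, against -0.0061, -0.0011 and -0.0017 over all tested genes. The Panx1 call was lost without scramble replicate 1 (0.062) or replicate 3 of the group with both (0.057), and that of Gja3 under Btg1 siRNA without Btg1 replicate 1 (0.059). All 18 genes with a row summed to 31.3 to 33.8 TPM in scramble cultures and 37.9 to 42.3 with both siRNAs, far below the sum of Gja1, Gja5 and Gjc1.

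Of 7 other desmosome genes tested, desmin (Des), the intermediate filament protein that desmosomes anchor, rose under Btg1 siRNA (0.37, edgeR adjusted p = 9.5e-07), the Btg2 siRNA (0.20, edgeR adjusted p = 0.0017) and both (0.34, edgeR adjusted p = 3.0e-06). Des was at 2193 to 2213 CPM in scramble cultures, 2672 to 3047 under Btg1 siRNA, 2419.8 to 2653 under Btg2 siRNA and 2766 to 2807 with both, so every siRNA library lay above scramble. Dsc3, a desmocollin of epithelia, fell from 0.919 ± 0.0796 CPM to 0.312 ± 0.0694 under Btg1 siRNA (edgeR adjusted p = 4.5e-04) and 0.267 ± 0.0277 with both (edgeR adjusted p = 1.5e-04), at levels far below Dsc2. The other 5 did not pass in any of these comparisons. The median over the 7 was -0.08 with both, 0.0019 under Btg1 siRNA and -0.06 under Btg2 siRNA. Of all tested genes, 38.9%, 36.5% and 30.0% were called in that order.

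Of 15 adherens junction and area composita genes tested, 7 rose and 2 fell with both siRNAs, 8 rose and 1 fell under Btg1 siRNA, and 9 rose and 1 fell under Btg2 siRNA. The median log2 changes were 0.11, 0.13 and 0.15 in that order, and 38.9%, 36.5% and 30.0% of all tested genes were called. Cdh13, T-cadherin, a cadherin without a transmembrane part, fell from 144 ± 7.11 CPM in scramble cultures to 121 ± 2.25 under Btg1 siRNA, 84.5 ± 1.89 under Btg2 siRNA and 79.7 ± 0.396 with both (edgeR adjusted p = 3.0e-05, 1.8e-11 and 4.3e-13). Ctnnd1, p120-catenin, which stabilises cadherins at the membrane, rose under Btg2 siRNA (0.34, edgeR adjusted p = 7.7e-08) and with both (0.27, edgeR adjusted p = 1.1e-06), and did not pass under Btg1 siRNA (0.0013, edgeR adjusted p = 0.98). Afdn, afadin, which ties nectins to actin, rose by 0.35 and 0.34 in the same comparisons (edgeR adjusted p = 7.4e-06 and 5.7e-06). Its change of 0.12 under Btg1 siRNA was close to the threshold (edgeR adjusted p = 0.047), and was lost without scramble replicate 1 (0.068) or 2 (0.26), any 1 Btg1 siRNA library (0.053 to 0.15) or Btg2 replicate 2 (0.055) or 3 (0.058). Under Btg1 siRNA the smallest p-values belonged to Nectin2, an adhesion receptor (0.41, edgeR adjusted p = 6.1e-07), Nrap, an actin anchor of the disc (0.42, edgeR adjusted p = 6.5e-07), and Flnc, the muscle filamin (0.34, edgeR adjusted p = 1.5e-06). Under Btg2 siRNA Nrap (0.17) and Flnc (0.21) rose (edgeR adjusted p = 0.013 and 6.8e-04) and Nectin2 did not pass (0.06, edgeR adjusted p = 0.43). With both, Nectin2 (0.32) and Flnc (0.15) rose (edgeR adjusted p = 1.7e-05 and 0.011) and Nrap did not pass (0.04, edgeR adjusted p = 0.51). The Nrap call under Btg2 siRNA was lost without scramble replicate 1 (0.10) or Btg2 replicate 2 (0.055) or 3 (0.057), and that of Flnc with both without replicate 3 of that group (0.066).

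Of 16 zonula occludens and channel scaffold genes of the disc, 3 rose and 6 fell with both siRNAs. Under Btg1 siRNA 7 rose and 3 fell, and under Btg2 siRNA 6 rose and 1 fell. Medians were -0.02, 0.16 and 0.05 in that order, and 38.9%, 36.5% and 30.0% of all tested genes were called. Ank3, ankyrin-G, which tethers membrane proteins to the spectrin cytoskeleton, rose by 0.35 under Btg1 siRNA, 0.30 under Btg2 siRNA and 0.32 with both (edgeR adjusted p = 6.7e-08, 1.8e-06 and 2.2e-07). Fgf13, an intracellular fibroblast growth factor homologue, fell by 0.48 under Btg1 siRNA and by 0.36 with both (edgeR adjusted p = 6.1e-07 and 2.4e-05), and did not pass under Btg2 siRNA (-0.04, edgeR adjusted p = 0.68). Bves, a popeye-domain membrane protein, rose by 0.45 under Btg1 siRNA, 0.20 under Btg2 siRNA and 0.29 with both (edgeR adjusted p = 2.2e-07, 0.0054 and 8.6e-05). Cav3, the muscle caveolin, rose by 0.20 under Btg1 siRNA, fell by 0.19 under Btg2 siRNA (edgeR adjusted p = 4.2e-04 and 9.0e-04) and did not pass with both (-0.05, edgeR adjusted p = 0.38).

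Of 13 genes for kinases, adaptors and trafficking of connexins, 3 rose and 4 fell with both siRNAs. Under Btg1 siRNA 4 rose and 4 fell, and under Btg2 siRNA 3 rose and 2 fell. Medians were -0.03, 0.08 and -0.02 in that order, and 38.9%, 36.5% and 30.0% of all tested genes were called. Bin1, whose protein shapes membrane tubules and delivers cargo along microtubules, fell in all 3 groups, from 34.2 ± 2.16 CPM in scramble cultures to 19.2 ± 0.366 under Btg1 siRNA, 27.5 ± 1.92 under Btg2 siRNA and 17.5 ± 0.131 with both (edgeR adjusted p = 7.9e-10, 4.4e-04 and 5.7e-11). Ywhae, an adaptor of the 14-3-3 family, fell by 0.45 under Btg1 siRNA and by 0.48 with both (edgeR adjusted p = 3.0e-09 and 6.8e-10), and did not pass under Btg2 siRNA (-0.03, edgeR adjusted p = 0.56). Dctn1, a dynactin subunit, rose by 0.21 under Btg1 siRNA and 0.22 with both (edgeR adjusted p = 8.8e-05 and 4.5e-05), with -0.02 under Btg2 siRNA (edgeR adjusted p = 0.75). Mapk3, the kinase ERK1, fell by 0.25 under Btg1 siRNA, by 0.15 under Btg2 siRNA and by 0.23 with both (edgeR adjusted p = 3.6e-05, 0.0071 and 8.0e-05). Prkce, protein kinase C epsilon, rose by 0.28, 0.42 and 0.32 in the same order (edgeR adjusted p = 0.0015, 3.9e-05 and 4.1e-04). Nedd4, a ubiquitin ligase that acts on connexin 43, rose by 0.20 under Btg2 siRNA (edgeR adjusted p = 6.2e-04) and did not pass under Btg1 siRNA (-0.07, edgeR adjusted p = 0.21) or with both (-0.03, edgeR adjusted p = 0.56).

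Of 11 transcription factor genes known to act on connexin genes, 1 rose and 2 fell with both siRNAs. Under Btg1 siRNA 3 rose and 2 fell, and under Btg2 siRNA 3 rose. Medians were -0.05, 0.07 and 0.07 in that order, and 38.9%, 36.5% and 30.0% of all tested genes were called. None fell under Btg2 siRNA by edgeR, at an unadjusted p below 0.05, by DESeq2 or by limma. Hopx, a homeodomain protein without DNA binding of its own, was at 26.7 ± 0.856 CPM in scramble cultures, 18.6 ± 0.254 under Btg1 siRNA, 27.9 ± 0.881 under Btg2 siRNA and 19.1 ± 1.17 with both. It fell under Btg1 siRNA and with both (edgeR adjusted p = 6.7e-07 and 1.6e-06). Irx3, an Iroquois factor that acts on Gja5 and Gja1 in the conduction system, fell by 0.51 under Btg1 siRNA and by 0.22 with both (edgeR adjusted p = 5.0e-07 and 0.0054), and did not pass under Btg2 siRNA (0.15, edgeR adjusted p = 0.060). Tbx20, a cardiac T-box factor, rose by 0.51 under Btg1 siRNA and 0.52 under Btg2 siRNA (edgeR adjusted p = 7.7e-07 and 1.2e-06), and did not pass with both (0.14, edgeR adjusted p = 0.067). Gata4 rose by 0.27 under Btg1 siRNA, 0.14 under Btg2 siRNA and 0.15 with both (edgeR adjusted p = 2.2e-06, 0.0058 and 0.0015). Jun, a subunit of AP-1, rose by 0.12 under Btg2 siRNA (edgeR adjusted p = 0.033), a call lost without any 1 scramble library or Btg2 replicate 1 or 3 (0.051 to 0.14).

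**Figure D5:**
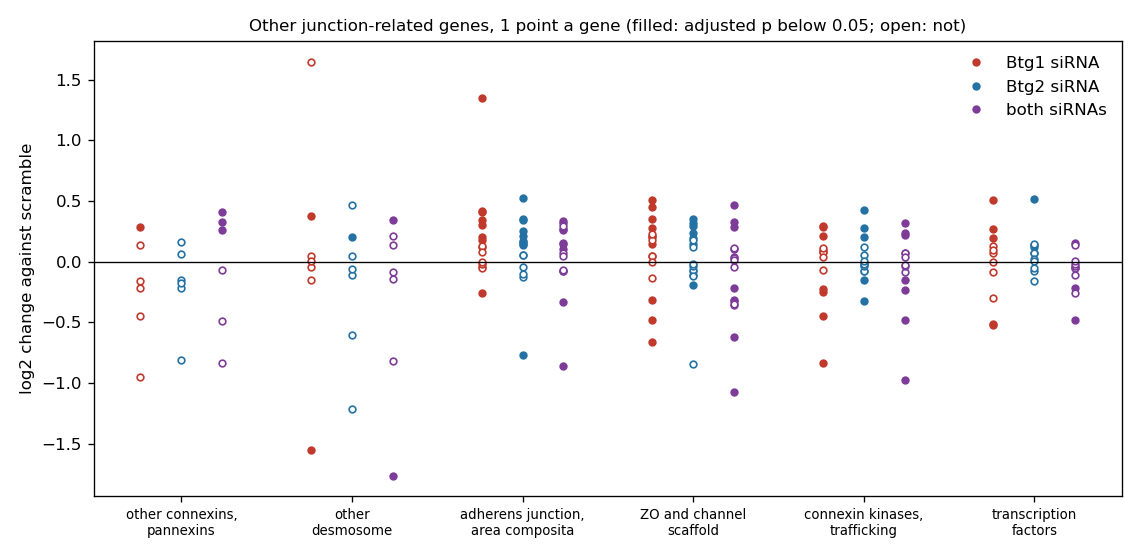
Log2 change against scramble of the tested genes of 6 related lists, 1 point a gene, by siRNA group (filled, edgeR adjusted p below 0.05; open, not). Points lie on both sides of 0 in each list.

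Markers of cell types were read beside these genes. Of all tested genes, 36.5% were called under Btg1 siRNA, 30.0% under Btg2 siRNA and 38.9% with both. The endothelial, epicardial and macrophage counts under Btg1 siRNA lay below that share. Of 9 fibroblast markers, 8 fell under Btg1 siRNA, 5 under Btg2 siRNA and 8 with both, and none rose by edgeR, DESeq2 or limma (1 at an unadjusted p below 0.05 under Btg2 siRNA, 0 in the other comparisons). Their summed level was 6902 to 7071 TPM in scramble cultures, 5568.5 to 6348 under Btg1 siRNA, 6682 to 6822 under Btg2 siRNA and 5508 to 6236 with both. Of 9 endothelial markers, 1 fell and 1 rose under Btg1 siRNA, 4 fell under Btg2 siRNA, and 6 fell and 1 rose with both, at summed levels of 66.1 to 72.8, 58.4 to 67.5, 56.6 to 58.6 and 47.0 to 54.0 TPM in scramble, Btg1 siRNA, Btg2 siRNA and both. The 9 cardiomyocyte markers summed to 27555 to 27966 TPM in scramble cultures, 26682 to 29746.5 under Btg1 siRNA, 29064 to 32776.5 under Btg2 siRNA and 29320.3 to 30121 with both. Of these, 1 rose and 4 fell under Btg1 siRNA, 3 rose under Btg2 siRNA, and 2 rose and 3 fell with both. No fibroblast, endothelial or cardiomyocyte marker was at 0 in any group. Of 8 atrial and conduction markers tested, 3 rose under Btg1 siRNA, 5 under Btg2 siRNA and 2 with both, and none fell by edgeR, DESeq2 or limma (at an unadjusted p below 0.05, 1 under Btg1 siRNA, 0 under Btg2 siRNA and 1 with both). They summed to 5169 to 5576 TPM in scramble cultures, 6199.6 to 7301 under Btg1 siRNA, 6305 to 7498 under Btg2 siRNA and 5791 to 6115 with both. The median log2 changes of the 8 were -0.02 under Btg1 siRNA, 0.31 under Btg2 siRNA and -0.10 with both. With both siRNAs the single changes ran from -0.41 to 1.59, so the list did not move as one. Bmp10, the untested member of that list, had no counts under Btg2 siRNA or with both. Of 6 epicardial and mesothelial markers, 1 rose under Btg1 siRNA, and 3 rose and 1 fell under Btg2 siRNA and likewise with both. They summed to 214.7 to 223.1 TPM in scramble cultures, 213.0 to 226.6 under Btg1 siRNA, 276.8 to 305.9 under Btg2 siRNA and 287.0 to 311.8 with both, and none was at 0. Of 7 smooth muscle and pericyte markers, 2 rose and 1 fell under Btg1 siRNA, 1 rose under Btg2 siRNA, and 3 rose and 2 fell with both. They summed to 2684 to 2922.5 TPM in scramble cultures, 3125 to 3862 under Btg1 siRNA, 3097 to 3456 under Btg2 siRNA and 2880.2 to 3125 with both. Cnn1, a smooth muscle calponin, rose by 1.45 under Btg1 siRNA, 0.96 under Btg2 siRNA and 1.19 with both (edgeR adjusted p = 5.4e-10, 1.2e-07 and 3.7e-09). Tagln, transgelin, rose by 0.62 under Btg1 siRNA and 0.16 with both (edgeR adjusted p = 1.3e-09 and 0.012), the second a call lost without replicate 2 of the group with both (0.069), and was at 0.05 under Btg2 siRNA (edgeR adjusted p = 0.50). Pdgfrb fell under Btg1 siRNA (-0.18, edgeR adjusted p = 0.0018) and with both (-0.19, edgeR adjusted p = 7.1e-04). With both, Cspg4 fell (-0.20, edgeR adjusted p = 0.013) and Myh11 rose (0.20, edgeR adjusted p = 0.044). Acta2 and Rgs5 were not called against scramble. Of the 7 markers, 3 were called as below the sum of the single changes and 4 were not called, against 15.1% of all tested genes called. The 3 were Cnn1 (-1.21), Tagln (-0.51) and Cspg4 (-0.29, edgeR adjusted p = 1.0e-06, 1.7e-05 and 0.031). Of 8 macrophage and leukocyte markers, 2 fell under Btg1 siRNA, 5 under Btg2 siRNA and 3 with both, and none rose by edgeR, at an unadjusted p below 0.05, by DESeq2 or by limma. They summed to 52.0 to 59.0 TPM in scramble cultures, 39.6 to 46.2 under Btg1 siRNA, 37.0 to 37.5 under Btg2 siRNA and 39.1 to 40.5 with both. No marker of these 2 lists was at 0 in any group. Fibroblasts also express Gja1 and Cdh2, and endothelial cells Gja5 and Tjp1. The part of these marker shifts in the values of the 8 genes was not tested.

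For each of the 8 genes, the 3 tested genes of at least 5 CPM with the most similar pattern were found by Pearson's r of log2 CPM over the 12 libraries. The 12 libraries fall into 4 groups, so r reflects mostly the 4 group means, and it is given as a description with no test. Nearest to Gja1 were Dkk3, a secreted dickkopf-family protein (r = 0.996), Scn4b, a sodium channel beta subunit (0.992), and Tmem164 (0.989). Nearest to Cdh2 were Mturn (r = 0.994), Gpd1, a glycerol phosphate dehydrogenase (0.993), and Abcc9, a subunit of ATP-sensitive potassium channels (0.993). Nearest to Gja5 were Ift52 (r = 0.980), Calr, calreticulin (0.971), and S1pr3, a sphingosine phosphate receptor (0.969), and nearest to Gjc1 were Tril (r = 0.967), Lrrc41 (0.966) and ST7 (0.961). Nearest to Tjp1 were Dennd5a (r = 0.989), Gpr155 (0.979) and Filip1 (0.979), and nearest to Pkp2 were Spry4, an inhibitor of receptor kinase signalling (r = 0.960), Bag1 (0.952) and Cacna1h, a T-type calcium channel (0.950). The values were lower for Jup (Tmem101, r = 0.920) and for Dsc2 (Ncoa4, r = 0.901).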

How the data were processed

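RNA was measured in 12 libraries of cultured neonatal rat ventricular cardiomyocytes. Per the labels' protocols, it was amplified (Ovation), made into Nextera XT libraries and read in pairs. Per the submitters' processing notes, the tools were FastQC, Trim Galore, cutadapt, STAR and featureCounts, on the rat build rn5. Versions, annotation and strand setting: not given in the sources used here. Whole-number counts per gene symbol and a table of TPM were deposited by the authors. Even values (13201) outnumbered odd ones (10440) among counts from 1 to 10, so counts may exceed fragments, and amplified reads are not independent molecules.

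Counts of all 4 groups were fitted together with edgeR 4.0.16 (limma 3.58.1, R 4.3.3): TMM scaling, filterByExpr, robust quasi-likelihood F test, 8 residual degrees of freedom, and Benjamini-Hochberg adjustment over 12535 genes within each of 7 comparisons. The common biological coefficient of variation was 4.97%. Each SE is the absolute log2 change divided by the root of F, and 95% intervals use the t distribution with 8 degrees of freedom. The test itself also draws on the spread of other genes, so its p can be smaller than the interval implies. The interval of the Gja1 departure holds 0 though its unadjusted edgeR p was 0.036. Departure from additivity is the change with both siRNAs minus the sum of the single changes. TPM were used only for levels between genes, for sums over genes and in an alternative. The step was run on simulated data in which a small share of the genes changed, in the group with both only. That setting does not check it where as large a share is called as here. The 8 genes are always named, and from each related list up to 3 genes with the smallest p among those called in each comparison with scramble. The result for 1 gene that this rule names is not reported here. The smooth muscle and pericyte markers were named after their values were seen. The genes, lists and rules were chosen with earlier results of these data known. Alternatives were RLE scaling or library size alone, 2 other filters, DESeq2 1.42.0, a replicate block, a fit of only the groups compared, limma on log2 TPM with a pseudocount of 1 or 0.1, and omission of each library in turn. Promoter windows are RefSeq's on GRCr8, and 5 of 8 genes matched by symbol.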

Additional observations from a re-analysis of the deposited data

Results flagged for a closer look

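The effect of the Btg1 siRNA on Tjp1, the gene of ZO-1, differed with the presence of the Btg2 siRNA, by a test of the difference itself. Without the Btg2 siRNA, Tjp1 rose by 0.63 on the log2 scale, from 201 ± 5.42 to 311 ± 8.05 CPM (SD, n = 3 each). With it, Tjp1 rose by 0.17, from 242 ± 7.95 to 272 ± 4.4 CPM. The difference of -0.459 passed (edgeR adjusted p = 2.1e-06). Such a difference was called for 15.1% of all tested genes, 626 higher and 1264 lower, and 13.06% had a larger absolute one. The Btg1 transcript departed too (-0.44, edgeR adjusted p = 2.9e-05), as did the Btg2 transcript (-0.65, edgeR adjusted p = 1.4e-07). The Btg2 siRNA changed the Btg2 transcript by -0.70 without the Btg1 siRNA and by -1.35 with it. The part of either transcript in the Tjp1 difference was not tested. No groups overlapped in Tjp1, which groups with additive effects can also show.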

How the results depend on the processing

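Every change against scramble that was called for Gja1, Gja5, Gjc1, Cdh2, Pkp2 and Tjp1 was called in the same direction under each alternative run; that of Jup with both siRNAs was lost in 1 (see the value given with it). The number of the 8 genes called stayed at 6 under Btg1 siRNA and at 4 under Btg2 siRNA, and ran from 5 to 7 with both. For the departure from additivity, 2 genes rather than 1 were called with library size alone as the scaling, which added Gja1 (0.18, edgeR adjusted p = 0.045), and 1 to 2 when single libraries were left out. The change of Gja5 under Btg2 siRNA was -0.024 with library size alone and -0.039 to 0.071 when single libraries were left out. The difference in Dsc2 between both siRNAs and the Btg1 siRNA was -0.11 to 0.035 when single libraries were left out. None of these values passed. Library size alone also ended the Pkp2 difference between the single siRNAs (-0.10, edgeR adjusted p = 0.067) and the Jun call (0.15), and made the Jup difference between the single siRNAs pass (0.13, edgeR adjusted p = 0.018). It moved the share of higher calls over all genes from 54.55% to 41.26% under Btg2 siRNA, from 47.26% to 58.15% for both siRNAs against the Btg2 siRNA, and from 33.12% to 49.7% for the departure. Fitting only the groups compared ended the Cdh2 difference between both siRNAs and the Btg1 siRNA (edgeR adjusted p = 0.099) and made the Jup difference between the single siRNAs pass (0.039). With limma on TPM, Panx1 with both siRNAs (0.056 and 0.070) and Jun (0.093) missed the threshold. Library size alone, no filter on low counts, the replicate block and limma ended the Afdn call under Btg1 siRNA (0.12, edgeR adjusted p = 0.051 to 0.063, limma 0.14). The causes were not tested. No pairing of the libraries by replicate number was seen, though a weak one could be missed. The 18 correlations of deviations between same-numbered libraries ran from -0.0920 to 0.0599, and 3 of 12 libraries were closest to their own number. With a replicate block, 6 of the 8 genes were called with both siRNAs, as without it. The block put Gja5 past the threshold between both siRNAs and the Btg1 siRNA (0.17, edgeR adjusted p = 0.043) and Cdh2 at it (0.11, edgeR adjusted p = 0.050). The runs on genes outside the set of 8 were added after seeing the data. With 3 libraries a group and group means of 19.5 to 61.3 CPM, the log2 changes of Dsc2, Gjc1 and Gja5 carry SEs of 0.06 to 0.08, against 0.04 for the others.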
